A study of Mus musculus with 12 samples.

Results

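Hormone receptors and luminal transcription factors were followed across 12 mammary tumours as 10 genes, taken from the count table by symbol: Prlr, Esr1, Pgr, Gata3, Elf5, Foxa1, Stat5a, Stat5b, Spdef and Ehf. All 10 were found among 39017 genes, and all 10 passed the filter on low counts that left 19370 genes for testing. The rule that picks them uses the symbol and no measured value, but the 10 genes were chosen with earlier results of these data known. Each tumour grew from NIC cells, an ErbB2-positive mouse breast cancer line. Per mouse, 250000 cells in PBS and matrigel were injected into the fourth fat pad, and the hosts were female, of strain FVB/N and 8 to 12 weeks old. Bulk tumour RNA was sequenced after depletion of ribosomal RNA.

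The 4 groups held 3 tumours each. NIC/p66High aggressive tumours came from cells made to overexpress p66ShcA constitutively, passaged serially in fat pads through rounds of in vivo selection and explanted to culture. NIC/p66Low aggressive tumours came from NIC cells, which lack p66ShcA, passaged and explanted in the same way. NIC/p66High parental and NIC/p66Low parental tumours came from the same engineered and unengineered cells without passage. All 4 groups share the ErbB2-positive NIC background, the host strain and the site of injection. Each group stands for 1 cell population, so a difference between groups cannot be told apart from one between the populations injected.

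Prlr encodes the prolactin receptor, which has no kinase of its own and acts through the associated kinase Jak2. Jak2 phosphorylates Stat5a and Stat5b, which then enter the nucleus and drive milk protein genes in the alveolar cells of the mammary gland. Esr1 and Pgr encode the oestrogen and progesterone receptors, which in the normal gland mark a subset of luminal cells. Gata3 and Foxa1 encode transcription factors of luminal cells, and Foxa1 opens chromatin for the oestrogen receptor. Elf5, Ehf and Spdef are transcription factors of the ETS family in epithelia, and Elf5 directs alveolar development downstream of the prolactin receptor.

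A promoter each of Prlr, Esr1 and Spdef is shown first. A promoter here is a window of 300 bases, mostly upstream of a start listed in RefSeq (GRCm38.p6). The search used the STAT5 palindrome TTCNNNGAA, which reads the same on both strands, and capitals mark its matches. It was found in 2726 of 32851 RefSeq promoters (8.3%) and in 2 of the 15 listed for 9 of the 10 genes, 1 of Esr1 and 1 of Prlr. The oestrogen response element GGTCANNNTGACC, also a palindrome, was found in 23 of the 32851 promoters (0.07%) and in none of the 15. A match describes letters and is not a measured binding site. For Prlr and Esr1 only the promoter with a match is shown, and the others listed for them had none.
Prlr, chr15:10223656-10223955, plus strand: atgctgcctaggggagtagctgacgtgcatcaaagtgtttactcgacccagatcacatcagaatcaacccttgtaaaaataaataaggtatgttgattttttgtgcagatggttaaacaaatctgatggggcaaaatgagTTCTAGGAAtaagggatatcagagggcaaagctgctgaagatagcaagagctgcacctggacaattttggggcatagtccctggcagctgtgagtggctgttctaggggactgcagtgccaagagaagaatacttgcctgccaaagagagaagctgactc
Esr1, chr10:4709908-4710207, plus strand: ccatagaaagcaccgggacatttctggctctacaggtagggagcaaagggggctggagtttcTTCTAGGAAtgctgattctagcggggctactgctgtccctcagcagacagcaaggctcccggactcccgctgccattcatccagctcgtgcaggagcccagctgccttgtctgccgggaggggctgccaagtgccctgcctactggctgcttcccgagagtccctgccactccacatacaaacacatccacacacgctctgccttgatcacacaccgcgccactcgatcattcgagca
Spdef, chr17:27728902-27729201, minus strand: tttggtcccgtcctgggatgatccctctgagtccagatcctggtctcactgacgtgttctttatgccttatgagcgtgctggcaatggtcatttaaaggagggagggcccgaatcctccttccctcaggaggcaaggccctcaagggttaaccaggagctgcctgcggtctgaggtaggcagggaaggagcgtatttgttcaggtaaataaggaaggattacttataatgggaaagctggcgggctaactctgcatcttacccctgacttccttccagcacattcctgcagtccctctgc

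Total counts were 17.4 to 76.1 M (mega-counts) per tumour. A floor of 3 counts was worth 0.0394 to 0.156 CPM (counts scaled to a TMM-adjusted library of 1 M). Shc1, the gene of p66ShcA, was at 237, 246 and 774 CPM in p66High aggressive, 61.0, 65.3 and 69.9 CPM in p66Low aggressive, 271, 234 and 223 CPM in p66High parental and 65.0, 59.0 and 69.4 CPM in p66Low parental tumours, in the order of the labels. Gene counts do not separate the p66 isoform from other Shc1 isoforms. Summed over 7 epithelial markers, among them Krt8, Krt18 and Epcam, levels were 2141 to 3233 CPM in the 12 tumours, against 47.9 to 149 CPM for 8 basal and myoepithelial markers. Krt19, also an epithelial marker, was at only 0.173 to 9.75 CPM. A total of 3 libraries were rich in lymph node stroma genes: p66Low aggressive replicates 1 and 2 (167 and 241 summed CPM) and p66High parental replicate 3 (54.2 CPM), against at most 1.76 CPM in the other 9.

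The 10 genes differed widely in level per length of annotated exon. That length joins the exons of all annotated isoforms, so the order of genes close in level can depend on it. For Stat5a it is 7133 bases, where the longest protein-coding transcript has 3888, and for Stat5b 5539, where it has 5213. Ehf was highest, with a mean of 172 CPM per kb over the 12 tumours (range 135 to 229.7). Elf5 followed at 23.2 CPM per kb (19.0 to 28.6) and Gata3 at 22.2 CPM per kb (12.7 to 29.0), and these ranges overlap. Stat5b (13.7 CPM per kb), Prlr (12.9 CPM per kb) and Stat5a (10.1 CPM per kb) also overlapped each other between tumours. Spdef averaged 4.73 CPM per kb but spanned 1.18 to 11.2 CPM per kb, reaching the range of Stat5a at its top and that of Esr1 at its bottom. Esr1 averaged 0.912 CPM per kb (0.601 to 1.20). Foxa1 (0.145 CPM per kb, 0.0244 to 0.282) and Pgr (0.0866 CPM per kb, 0 to 0.187) lay lowest, overlapped each other and lay apart from Esr1.

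**Figure D1:**
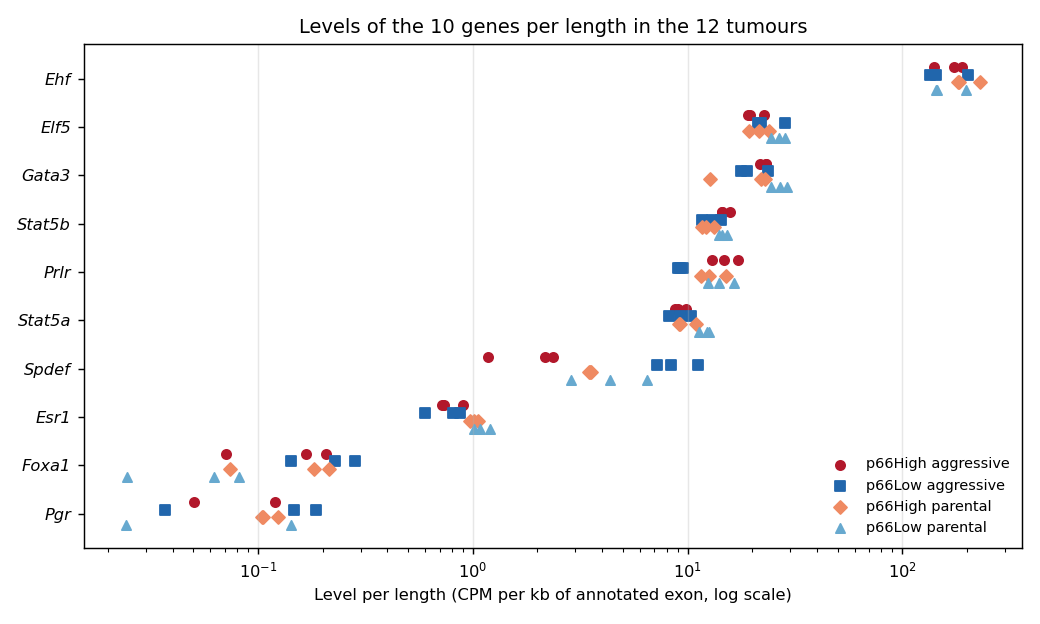
Level of each gene in CPM per kb of annotated exon (log axis), 1 point per tumour, with colour and shape giving the group. Ehf lies near 172 CPM per kb and Foxa1 and Pgr at the low end, and 2 tumours with no Pgr count are not drawn.

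The spread across tumours also differed by gene. The highest tumour stood over the lowest by 1.35-fold for Stat5b, 1.5-fold for Elf5, 1.53-fold for Stat5a, 1.7-fold for Ehf and 1.91-fold for Prlr. For Esr1 it was 2-fold and for Gata3 2.29-fold. Spdef spanned 9.49-fold and Foxa1 11.6-fold, although Foxa1 rested on 2 to 54 counts per tumour.

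The prolactin receptor gene Prlr (ENSMUSG00000005268, mm10 chromosome 15, 10177238 to 10349180, plus strand) was lower in p66Low aggressive tumours than in any other group. It was at 265, 226 and 199.9 CPM in p66High aggressive tumours. In p66Low aggressive tumours it was at 146, 142 and 139 CPM. In p66High parental tumours it was at 233, 178 and 194 CPM, and in p66Low parental tumours at 252, 190.3 and 216 CPM. The p66Low aggressive tumours averaged 142 ± 3.62 CPM (SD, n = 3) and lay below all 9 others, whose groups overlapped each other.

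With selection in p66Low tumours Prlr fell by 0.63 on the log2 scale (SE 0.14, edgeR quasi-likelihood test, adjusted p = 0.0105) in aggressive against parental tumours, 1.54-fold lower. It did not pass in p66High tumours (log2 0.20, adjusted p = 0.424). The difference between these selection effects, tested as the interaction, was 0.82 (SE 0.19, adjusted p = 0.0195). In aggressive tumours Prlr was 1.62-fold higher in p66High than in p66Low tumours (log2 0.70, SE 0.14, adjusted p = 0.0046), while in parental tumours the log2 difference was -0.12 (adjusted p = 0.628). All of these values come from bulk tissue, where fewer cells of a type and less RNA per cell cannot be told apart. The p66Low fall was -0.50 (adjusted p = 0.0524) without p66Low parental replicate 1, and -0.67 (adjusted p = 0.161) without the 3 lymph node-rich libraries, which leaves p66Low aggressive with a single tumour assumed to vary like the other groups. The interaction lost its call without p66Low parental replicate 1 or 3, p66High parental replicate 2 or 3, or p66Low aggressive replicate 2 (adjusted p 0.0511 to 0.0583), with library size alone (0.71, adjusted p = 0.0637), with tumours of shared title number summed (0.75, adjusted p = 0.0554) and without the lymph node-rich libraries (0.83, adjusted p = 0.188). The difference between aggressive tumours was 0.75 (adjusted p = 0.0996) without those libraries.

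Other genes of chromosome 15 moved too, and their part in the Prlr result was not tested. The median log2 difference of 572 tested protein-coding genes of chromosome 15 was -0.29 in p66Low aggressive against p66Low parental tumours (143 called lower, 40 higher). Over all 14735 such genes it was 0.02 (997 called lower, 1672 higher). In p66High against p66Low parental tumours the chromosome 15 median was -0.41 (162 called lower, 6 higher). For the interaction it was 0.43 (39 called below 0, 110 above). In p66High selection it was 0.10, and between aggressive tumours -0.00. For the 41 such genes within 5 Mb of Prlr the median in p66Low selection was -0.27, beside -0.63 for Prlr. In p66High against p66Low aggressive tumours the 41 genes had a median of 0.04, beside 0.70 for Prlr, and in parental tumours -0.31, beside -0.12 for Prlr. For the interaction the 41 genes had a median of 0.47, beside 0.82 for Prlr. The nearest tested protein-coding genes, Agxt2 at 9.4 kb and Spef2 at 428.4 kb, passed in no comparison. Their levels were low, with group means of 0.391 to 0.751 CPM for Agxt2 and 0.0393 to 0.252 CPM for Spef2. With an SE of 0.45 or more, their lack of calls says little about differences of the size seen for Prlr.

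**Figure D2:**
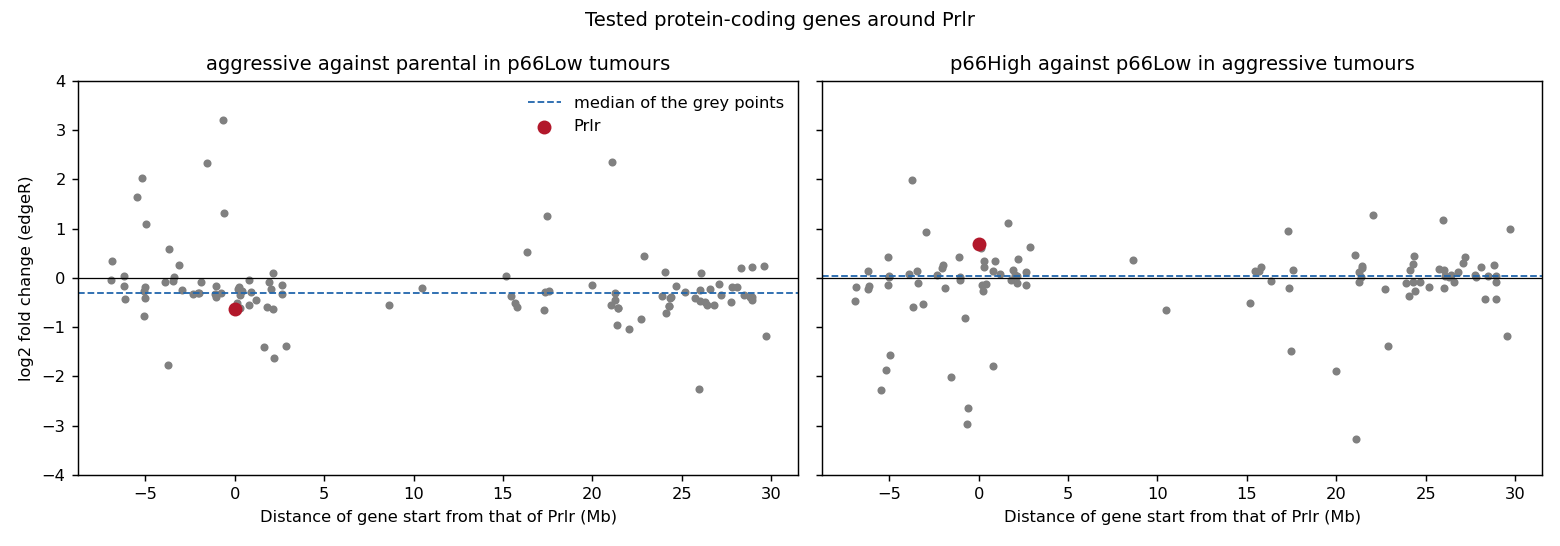
The log2 fold change (edgeR) of the 103 tested protein-coding genes whose starts lie between -6.9 and 29.7 Mb of that of Prlr, with Prlr in red and the median of the others dashed. In aggressive against parental p66Low tumours the median is -0.31 and Prlr is at -0.63. In p66High against p66Low aggressive tumours the median is 0.03 and Prlr is at 0.70.

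Downstream of the receptor, Stat5a (ENSMUSG00000004043, chromosome 11, 100859351 to 100885169, plus strand) was highest in p66Low parental tumours. It was at 70.2, 64.4 and 62.2 CPM in p66High aggressive, 73.7, 66.1 and 58.8 CPM in p66Low aggressive, 66.1, 65.2 and 78.1 CPM in p66High parental and 87.5, 89.9 and 80.3 CPM in p66Low parental tumours. The 3 p66Low parental tumours lay above all 9 others. It fell by 0.38 on the log2 scale (SE 0.11, adjusted p = 0.0315) in p66Low aggressive against p66Low parental tumours. The call was lost when any p66Low parental tumour, p66Low aggressive replicate 2 or p66Low aggressive replicate 3 was left out (highest adjusted p = 0.107). It was also lost with library size alone (log2 -0.26, adjusted p = 0.208), with title numbers summed (log2 -0.36, adjusted p = 0.0573), in the 6 tumours alone (log2 -0.35, adjusted p = 0.0954) and without the lymph node-rich libraries (log2 -0.55, adjusted p = 0.059). In p66High against p66Low parental tumours Stat5a had a log2 difference of -0.30 (unadjusted p = 0.0155, adjusted p = 0.112).

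Stat5b (ENSMUSG00000020919, chromosome 11, 100780731 to 100850724, minus strand) lies 8.6 kb from Stat5a and showed no call. It was at 87.2, 80.0 and 79.8 CPM in p66High aggressive, 72.1, 79.6 and 64.5 CPM in p66Low aggressive, 67.9, 64.6 and 73.4 CPM in p66High parental and 80.3, 84.7 and 77.4 CPM in p66Low parental tumours. The p66High aggressive tumours lay above the p66High parental ones without overlap (log2 0.26, SE 0.09, unadjusted p = 0.0155, adjusted p = 0.122). The interaction was 0.43 (SE 0.13, adjusted p = 0.0545 in edgeR and 0.0484 in DESeq2).

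Reads from the stretches that these genes share can be hard to assign, which bears on both sets of counts. Of the 50-base windows of their annotated protein-coding transcripts, 608 were shared, 14.7% of those of Stat5a and 11.1% of those of Stat5b. The longest identical stretch is 324 bases of coding sequence over 3 exons, spanning 100874023 to 100874983 in Stat5a and 100797741 to 100798701 in Stat5b. Its first 150 bases are shown as an example in which no read can be told apart.
Stat5a and Stat5b, coding strand, spliced: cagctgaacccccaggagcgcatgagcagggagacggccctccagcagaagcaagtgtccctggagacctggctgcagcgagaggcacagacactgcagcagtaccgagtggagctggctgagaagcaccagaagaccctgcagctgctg
How reads mapping to several places were counted is not given in the sources used here. Summed as 1 gene, Stat5a and Stat5b had 138 ± 12.9 CPM in p66Low aggressive and 167 ± 8.47 CPM in p66Low parental tumours (SD, n = 3 each), a log2 difference of -0.27 (SE 0.09, adjusted p = 0.0744) that did not pass. The ratio of Stat5a to Stat5b counts was 0.796 ± 0.0153 in p66High aggressive, 0.921 ± 0.0963 in p66Low aggressive, 1.02 ± 0.0464 in p66High parental and 1.06 ± 0.0254 in p66Low parental tumours (SD, n = 3 each). In both lines the 3 aggressive tumours had lower ratios than the 3 parental ones, for which an exact two-sided permutation test gives p = 0.10, the smallest that 3 against 3 allows.

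The oestrogen receptor gene Esr1 (ENSMUSG00000019768, chromosome 10, 4611593 to 5005614, plus strand) was lower in aggressive than in parental tumours of both lines without overlap. It was at 10, 9.78 and 12.3 CPM in p66High aggressive and 11.9, 11 and 8.21 CPM in p66Low aggressive tumours. Parental levels were 13.8, 13.3 and 14.4 CPM in p66High and 16.4, 13.8 and 14.7 CPM in p66Low tumours. All 6 aggressive tumours lay below all 6 parental ones. The fall of 0.53 on the log2 scale (SE 0.16, adjusted p = 0.037) passed in p66Low tumours, while the value of -0.37 (SE 0.16, unadjusted p = 0.0344, adjusted p = 0.182) in p66High tumours did not. The interaction was 0.16 (adjusted p = 0.672). The p66Low call stayed only when p66Low aggressive replicate 1 or any p66High aggressive tumour was left out, with an adjusted p of up to 0.147 otherwise. Under every other setting but DESeq2 it missed the threshold, with log2 values from -0.87 without the lymph node-rich libraries (adjusted p = 0.0709) to -0.42 with library size alone (adjusted p = 0.127).

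Progesterone receptor gene Pgr (ENSMUSG00000031870, chromosome 9, 8899833 to 8968611, plus strand) was near the floor of detection. It was at 0.431, 1.02 and 0 CPM in p66High aggressive, 1.25, 1.59 and 0.314 CPM in p66Low aggressive, 0.902, 1.06 and 0.892 CPM in p66High parental and 1.22, 0 and 0.208 CPM in p66Low parental tumours. The counts of 0 allow up to 0.129 CPM in p66High aggressive replicate 3 and 0.122 CPM in p66Low parental replicate 2. No comparison passed, with log2 differences from -1.09 to 1.07 between groups and -2.03 for the interaction, and SE of 1.07 or more. A single tumour, p66Low parental replicate 1, moved these values: without it the difference was 3.14 in p66Low selection, 2.97 between parental tumours and -4.10 for the interaction, none past the threshold.

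Among the luminal factors, Gata3 (ENSMUSG00000015619, chromosome 2, 9857078 to 9890034, minus strand) was highest in p66Low parental tumours but passed in no comparison. It was at 92.2, 86.5 and 92.7 CPM in p66High aggressive, 74.9, 70.4 and 94.7 CPM in p66Low aggressive, 87.5, 50.5 and 91.6 CPM in p66High parental and 107, 116 and 97.1 CPM in p66Low parental tumours. Both p66High parental (log2 -0.48, adjusted p = 0.16) and p66Low aggressive tumours (log2 -0.41, adjusted p = 0.169) lay below p66Low parental tumours without overlap, and both comparisons share the p66Low parental tumours. Without p66High parental replicate 2, the lowest tumour, the p66Low aggressive value was -0.40 and passed (adjusted p = 0.0283). Type 2 lymphocytes also express Gata3, and 5 of their markers summed to 0.129 to 5.31 CPM in the 12 tumours. Markers of T cells as a whole summed to 4.27 to 208 CPM. The part of either in the Gata3 levels was not tested. Exons of Gata3 overlap those of 9230102O04Rik on the same strand over 77 bases (1.94% of Gata3). That non-coding gene was lower in p66High (1.05 CPM) than in p66Low parental tumours (4.21 CPM, log2 -1.98, adjusted p = 0.00385). Gata3 exons also overlap Gm13256 on the opposite strand (155 bases, 3.9% of Gata3). Of the other members, Prlr overlaps Gm21973 on the same strand (203 bases, 1.32% of Prlr). Stat5a overlaps Stat3 on the opposite strand (72 bases, 1.01% of Stat5a).

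Foxa1 (ENSMUSG00000035451, chromosome 12, 57540628 to 57546916, minus strand) was lowest in p66Low parental tumours at few counts. It was at 0.558, 0.236 and 0.69 CPM in p66High aggressive, 0.938, 0.759 and 0.471 CPM in p66Low aggressive, 0.609, 0.246 and 0.709 CPM in p66High parental and 0.27, 0.0812 and 0.208 CPM in p66Low parental tumours. The p66Low aggressive tumours (18, 49 and 33 counts) lay above the p66Low parental ones (10, 2 and 8 counts), a log2 rise of 1.85 (SE 0.56, adjusted p = 0.043). The call stayed only without p66High parental replicate 2, p66Low aggressive replicate 3, or p66High aggressive replicate 2 or 3, and the adjusted p reached 0.122 otherwise. It was also lost with no filter (log2 1.85, adjusted p = 0.0513), in the 6 tumours alone (log2 1.87, adjusted p = 0.0575) and without the lymph node-rich libraries (log2 1.26, adjusted p = 0.454). In parental tumours the log2 difference was 1.46 (SE 0.56, unadjusted p = 0.0235, adjusted p = 0.143).

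The ETS factors Elf5 and Ehf, 108.4 kb apart on chromosome 2, were abundant in every tumour and passed in no comparison. Elf5 (ENSMUSG00000027186, 103411688 to 103450989, plus strand) was at 115, 134 and 112 CPM in p66High aggressive, 125, 129 and 168 CPM in p66Low aggressive, 141, 114 and 127 CPM in p66High parental and 157, 167 and 144 CPM in p66Low parental tumours. Its p66High parental tumours lay below its p66Low parental ones (log2 -0.29, SE 0.13, unadjusted p = 0.0436, adjusted p = 0.203). Ehf (ENSMUSG00000012350, 103263433 to 103303278, minus strand) was at 972, 1060.4 and 786 CPM in p66High aggressive, 754, 803 and 1126 CPM in p66Low aggressive, 1014, 1281 and 1024 CPM in p66High parental and 802, 1101 and 810.4 CPM in p66Low parental tumours. Its groups overlapped in all 4 comparisons, with log2 differences between -0.24 and 0.29.

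Spdef (ENSMUSG00000024215, chromosome 17, 27714352 to 27728955, minus strand), an ETS factor of secretory epithelia, showed the largest difference of the 10 genes in a called comparison. It was at 5.46, 4.99 and 2.72 CPM in p66High aggressive tumours. In p66Low aggressive tumours it was at 19.4, 16.7 and 25.8 CPM. In p66High parental tumours it was at 8.10, 7.99 and 8.18 CPM, and in p66Low parental tumours at 14.9, 10 and 6.60 CPM. The p66High aggressive tumours lay below all 9 others, and the p66Low aggressive ones above all 9 others.

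In aggressive tumours Spdef was 4.68-fold lower in p66High than in p66Low tumours (log2 -2.23, SE 0.32, adjusted p = 0.000934), a call kept when any single tumour was left out and without the 3 lymph node-rich libraries (log2 -2.53, adjusted p = 0.0114). In p66Low tumours it rose by 0.98 on the log2 scale with selection (SE 0.30, adjusted p = 0.046). That call stayed only when p66Low parental replicate 1 or p66High aggressive replicate 3 was left out, with an adjusted p of up to 0.138 otherwise. It was also lost in the 6 tumours alone (log2 1.00, adjusted p = 0.0791), with title numbers summed (log2 0.99, adjusted p = 0.0686) and without the lymph node-rich libraries (log2 1.29, adjusted p = 0.138). In p66High tumours the value was -0.87 (SE 0.31, adjusted p = 0.122 in edgeR and 0.0434 in DESeq2). The interaction was -1.85 (SE 0.43, adjusted p = 0.0193), called with any single tumour left out, but not without the 3 lymph node-rich libraries (log2 -2.16, adjusted p = 0.0932) or with title numbers summed (log2 -2.00, adjusted p = 0.0549). Pacsin1, the nearest tested protein-coding gene at 2.9 kb, was at 1.12 CPM in p66High aggressive, against 4.24 CPM in p66Low aggressive tumours (log2 -1.90, adjusted p = 0.013). The 199 tested protein-coding genes within 5 Mb of Spdef had a median log2 difference of 0.04 there.

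Of the genes next to the other members, few passed. Gm16485, 3.2 kb after Pgr and at group means of 0.0631 to 0.439 CPM, was called higher in p66Low selection (log2 2.80, adjusted p = 0.041) and lower in p66High than in p66Low aggressive tumours (log2 -2.63, adjusted p = 0.0454), and was called for the interaction (log2 -5.02). Celf2, 2347.5 kb before Gata3, was called in the same first 2 comparisons (log2 0.77 and -0.65). Pacsin1 was also called in p66Low selection (log2 1.86, adjusted p = 0.0179), and Cat, the catalase gene 2.9 kb after Elf5, for the interaction (log2 0.41, adjusted p = 0.0495). The nearest genes on the other sides, Ccdc170 and Syne1 of Esr1, Trpc6 of Pgr, Taf3 of Gata3, Apip of Ehf, Mipol1 and Ttc6 of Foxa1, Ptrf of Stat5a, Ghdc of Stat5b and D17Wsu92e of Spdef, passed in no comparison.

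**Figure D3:**
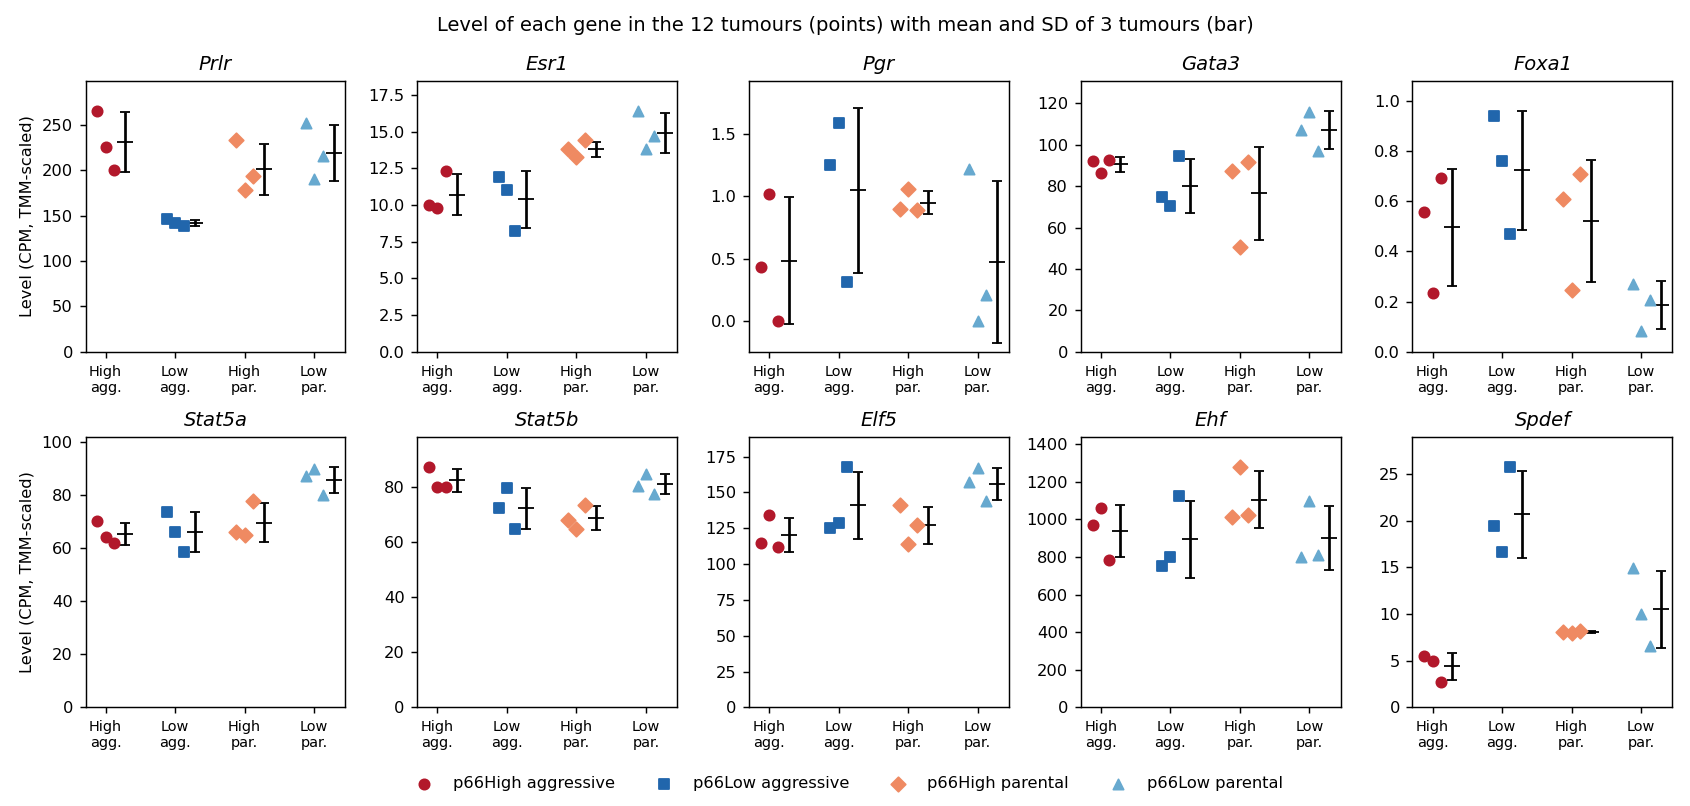
Level of the 10 genes in CPM (linear axes, each from 0 except Pgr, whose error bar passes below 0), 1 point per tumour, with the mean and SD of 3 tumours as bars. Prlr lies lowest in p66Low aggressive tumours (139 to 146 CPM). Spdef lies highest there (16.7 to 25.8 CPM) and lowest in p66High aggressive tumours (2.72 to 5.46 CPM).

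**Figure D4:**
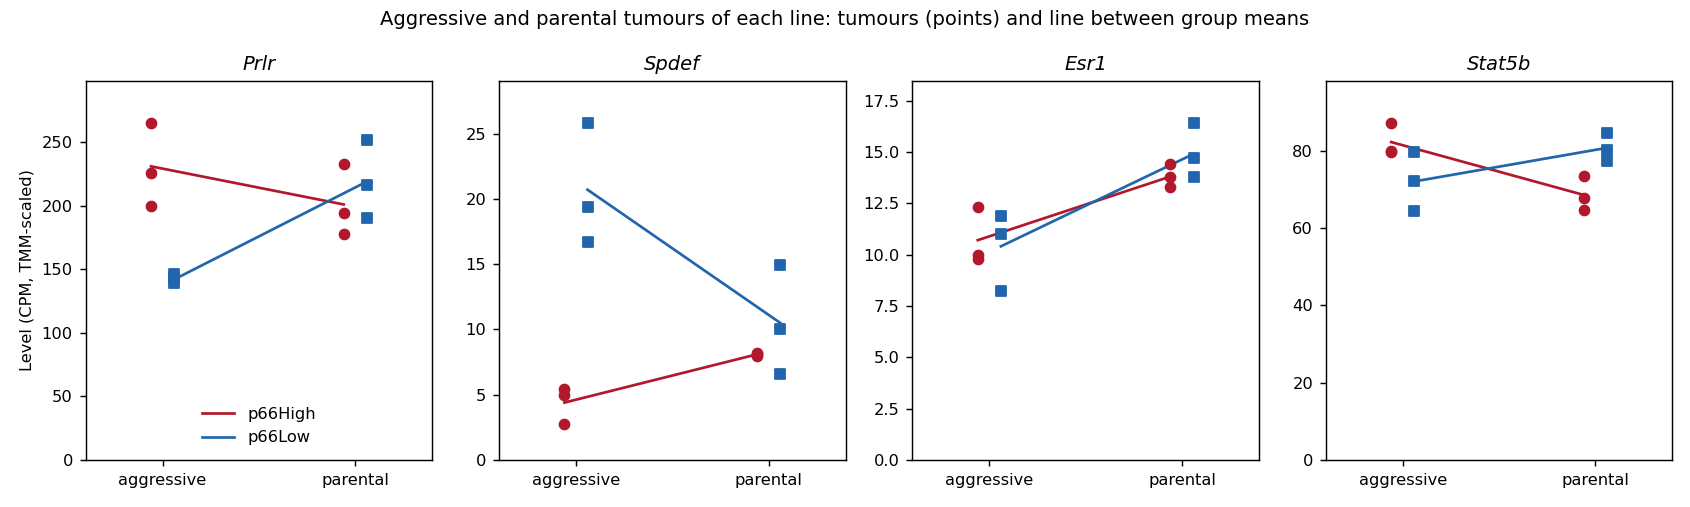
Level in CPM of Prlr, Spdef, Esr1 and Stat5b in aggressive and parental tumours of p66High (red circles) and p66Low (blue squares) lines, with lines between group means. For Prlr and Stat5b the lines run in opposite directions and cross, for Spdef they open towards the aggressive side, and for Esr1 both run lower towards it and cross close to each other.

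Read across the 10 genes, selection in p66Low tumours gave the most calls. In p66Low aggressive against p66Low parental tumours 5 of 10 passed, where 16.6% of all tested genes did: Foxa1 and Spdef rose (9.6% of all genes rose) and Prlr, Esr1 and Stat5a fell (7.03% fell). Groups did not overlap for 6 of the 10, against 32.8% of all genes. The median log2 difference of the 10 was -0.16, and -0.02 over all genes. T cell markers differed between these groups, at 124, 208 and 41.4 summed CPM in p66Low aggressive and 5.77 to 6.53 CPM in p66Low parental tumours, with 9 of 9 called higher. Of B cell markers 5 of 5, of lymph node stroma markers 3 of 7 and of macrophage markers 2 of 4 were also higher, and of epithelial markers 0 of 7 passed. Their part in these calls was not tested, and none of the 10 passed without the 3 lymph node-rich libraries, where 3.47% of genes did.

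In p66High aggressive against p66High parental tumours 0 of 10 passed in edgeR, where 5.94% of genes did (3.11% higher, 2.82% lower), although 3 had an unadjusted p under 0.05 and 1, Spdef, passed in DESeq2. Groups did not overlap for 3 of 10, Stat5b above and Esr1 and Spdef below, against 32.6% of all genes. The median of the 10 was -0.10 and that of all genes -0.00.

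Between p66High and p66Low parental tumours 0 of 10 passed in edgeR and 0 in DESeq2, where 8.08% of genes passed in edgeR (3.98% higher, 4.1% lower), and 5 had an unadjusted p under 0.05. Gata3, Elf5, Stat5a and Stat5b lay lower without overlap, 4 of 10 against 29.9% of all genes. In p66High against p66Low aggressive tumours 2 of 10 passed, Prlr higher and Spdef lower, where 21% of genes did (8.92% higher, 12.1% lower), and 3 of 10 did not overlap against 38.2% of all genes. Of T cell markers 9 of 9 and of B cell markers 5 of 5 were called lower in p66High than in p66Low aggressive tumours. So were 4 of 7 of lymph node stroma, 3 of 4 of macrophages, 1 of 9 of adipocytes and 2 of 7 of epithelium. Of type 2 lymphocyte markers 1 of 2 tested was lower. Of fibroblast markers 0 of 6, of endothelial markers 0 of 5 and of basal and myoepithelial markers 0 of 8 passed. Summed T cell levels were 4.27 to 12.1 CPM, against 41.4 to 208 CPM. The part of these markers in the Prlr and Spdef calls was not tested. Of the 10 genes, 1 passed without the 3 lymph node-rich libraries, Spdef. For the interaction 2 of 10 passed, again Prlr and Spdef, where 12.4% of genes did (4.37% above 0, 7.99% below). The count of 2 in 10 for aggressive tumours is near the share of all genes.

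**Figure D5:**
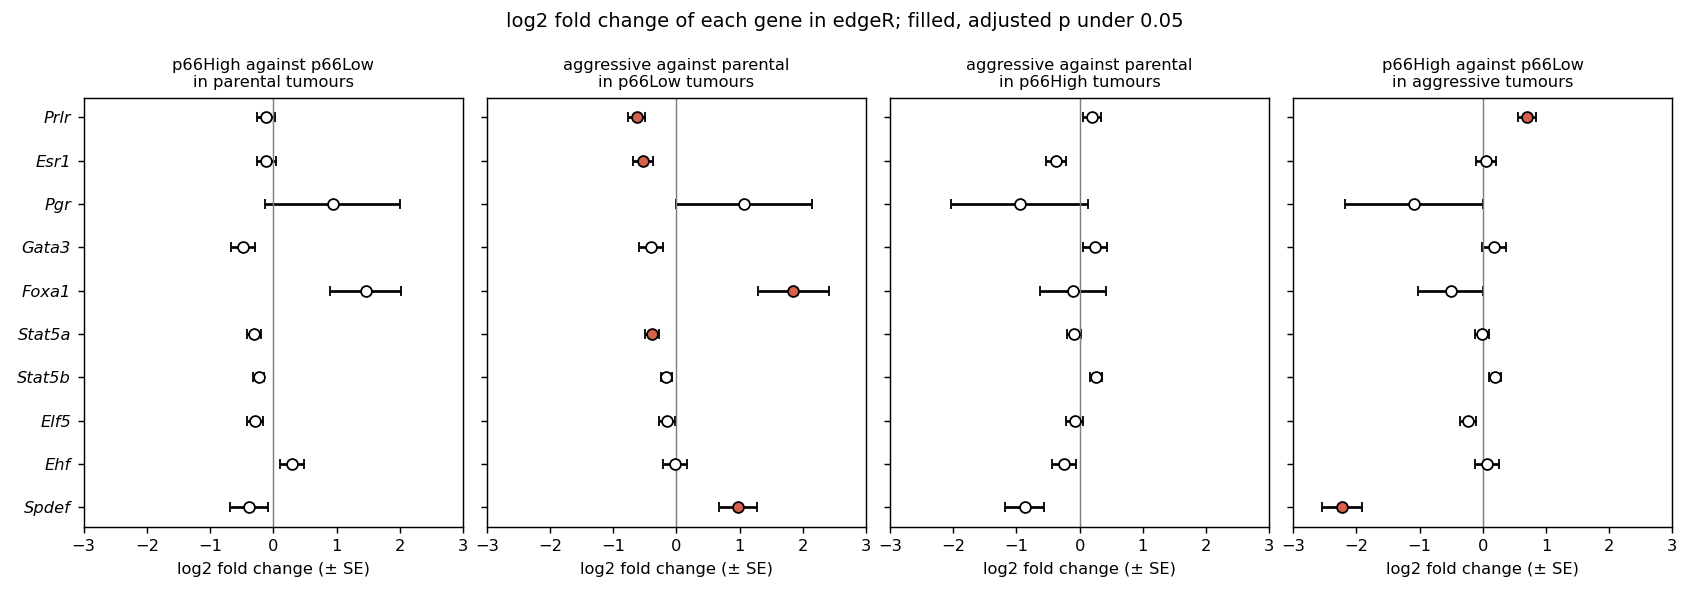
The log2 fold change of each gene (points, edgeR) with SE (bars) in 4 comparisons, filled where the adjusted p is under 0.05. In aggressive against parental p66Low tumours 5 of 10 points are filled, and in p66High against p66Low aggressive tumours Prlr (0.70) and Spdef (-2.23).

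Further lists covered the surroundings of these genes, and each list's counts can be read against all tested genes. Without the 3 lymph node-rich libraries 4.12% of genes passed between parental tumours, 3.47% in p66Low selection, 2.88% in p66High selection, 5.29% between aggressive tumours and 1.65% for the interaction. The median log2 difference of all genes lay between -0.02 and 0.05 in the 5 comparisons.

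In the prolactin receptor pathway, 6 of 14 listed genes rose, 0 fell and 8 did not pass in p66Low aggressive against p66Low parental tumours, where 9.6% of all genes rose and 7.03% fell. The median log2 difference of the 14 was 0.42, against -0.02 over all genes. Jak2, the receptor's kinase, was at 99.3 ± 6.1 CPM in p66Low aggressive and 65.5 ± 4.78 CPM in p66Low parental tumours (SD, n = 3 each; log2 0.60, adjusted p = 0.00396). Socs1, a feedback inhibitor of Jak kinases, was at 8.38 ± 1.26 CPM, against 1.15 ± 0.495 CPM (log2 2.85, adjusted p = 0.00434). The phosphatase gene Ptpn2 rose by 0.86 and the kinase gene Pim1 by 1.15. Several of these genes are also active in T cells, whose markers were higher in the same tumours as given above. Without the 3 lymph node-rich libraries, the log2 differences were 1.17 for Ptpn2, 3.06 for Socs1 and 0.59 for Jak2. That fit leaves p66Low aggressive with a single tumour, replicate 3. Its T cell markers summed to 41.4 CPM, against 5.77 to 6.53 CPM in p66Low parental tumours. The fit therefore cannot separate these rises from the T cell difference, whose part was not tested.

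Of the 14 pathway genes, 5 fell and 0 rose in p66High against p66Low aggressive tumours (12.1% and 8.92% of all genes), with a median of -0.31, against 0.02 over all genes. Jak2 was at 70.2 ± 9.92 CPM in p66High aggressive, against 99.3 ± 6.1 CPM in p66Low aggressive tumours (log2 -0.50), and Socs1 at 1.73 ± 1.12 CPM against 8.38 ± 1.26 CPM (log2 -2.26). Ptpn2 fell by 0.57 and Ptpn11, a phosphatase that signals from the receptor, fell by 0.33. For the interaction 4 fell, Socs3, Socs1, Jak2 and Ghr, the growth hormone receptor gene. In the other 2 comparisons, p66High aggressive against p66High parental and p66High against p66Low parental tumours, edgeR called 0 of the 14. Without the 3 lymph node-rich libraries 2 rose in p66Low selection, 1 fell in p66High against p66Low aggressive tumours and 0 passed for the interaction.

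Steroid receptors and their coregulators, 14 genes, gave 2 calls between parental tumours, 4 in p66Low selection, 1 in p66High selection, 4 between aggressive tumours and 1 for the interaction. Of all genes 8.08%, 16.6%, 5.94%, 21% and 12.4% passed in these comparisons, and the list's medians lay between 0.01 and 0.16. Nr3c2, the mineralocorticoid receptor gene, was at 6.46 ± 1.35 CPM in p66High aggressive, against 17 ± 2.67 CPM in p66High parental tumours (SD, n = 3 each; log2 -1.40, adjusted p = 0.0113), the 1 call of that comparison. In p66Low tumours it fell by 0.99 with selection, as did Nr3c1, the glucocorticoid receptor gene (by 0.39), and Pgrmc2 (by 0.40), while Nr2f2, an orphan nuclear receptor gene, rose by 0.62. The coregulators Ncoa2 (log2 0.69) and Nrip1 (log2 0.76) were higher in p66High than in p66Low parental tumours, and again in aggressive tumours at 0.41 and 0.80. Pgrmc2 (log2 0.34) was also higher and Ncoa3 (log2 -0.34) lower in p66High than in p66Low aggressive tumours. Pgrmc2 was the 1 gene called for the interaction (log2 0.49). When the 3 lymph node-rich libraries were left out, 0 of the 14 passed in p66Low selection, 0 between aggressive tumours and 0 for the interaction, while Nr3c2 passed in p66High selection (log2 -1.48) and Ncoa2 and Nrip1 between parental tumours.

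Target genes of oestrogen and progesterone, of which 12 of 15 were tested, gave 1 call in each of p66Low selection, p66High against p66Low parental tumours and the interaction, and 0 in p66High selection, where 16.6%, 8.08%, 12.4% and 5.94% of all genes passed. Between aggressive tumours 2 were higher and 1 lower (8.92% and 12.1% of all genes). The list's medians ran from -0.50 to 0.34. Greb1, an oestrogen target, was at 2.52 ± 1.62 CPM in p66Low aggressive, against 0.242 ± 0.153 CPM in p66Low parental tumours (SD, n = 3 each; log2 3.40, adjusted p = 0.0103), where Esr1 fell. Bcl2, an inhibitor of cell death, was higher in p66High than in p66Low tumours, by 0.85 in parental and 1.14 in aggressive tumours. In aggressive tumours Agr2 (log2 1.52) was also higher and Ctsd, the cathepsin D gene, lower (log2 -0.57). Ccnd1, the cyclin D1 gene, was called for the interaction (log2 1.04). With the 3 lymph node-rich libraries left out Greb1 passed in p66Low selection (log2 3.33, adjusted p = 0.0336). None of the 12 passed in another comparison there, with Bcl2 at 0.88 between parental tumours (adjusted p = 0.105) and 1.39 between aggressive tumours (adjusted p = 0.0627).

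Of 20 other epithelial transcription factors, 2 rose and 5 fell in p66Low aggressive against p66Low parental tumours (9.6% and 7.03% of all genes), with a median of -0.20. The AP-2 factor gene Tfap2c fell by 1.10 and Tfap2b by 0.86, Hey1 of the Notch pathway fell by 1.26, and Elf3, an ETS factor related to Ehf, rose by 1.29. Between p66High and p66Low aggressive tumours 4 were higher and 2 lower (8.92% and 12.1% of all genes), with a median of 0.17. Tfap2b was at 117 ± 9.94 CPM in p66High aggressive, against 34.9 ± 7.35 CPM in p66Low aggressive tumours (SD, n = 3 each; log2 1.74, adjusted p = 0.000212). Tfap2c was 0.93 and Cebpb 0.68 higher on the log2 scale, and Klf4 1.71 lower (log2 -1.71). Elf3 (log2 0.98) and Grhl2 (log2 0.41) rose in p66High aggressive against p66High parental tumours, and Tfap2b (log2 0.73) and Grhl1 (log2 0.51) were higher in p66High than in p66Low parental tumours. For the interaction 5 of 20 passed above 0 and 2 below (4.37% and 7.99% of all genes). Without the 3 lymph node-rich libraries 1 rose, Elf3 (log2 1.51), and 0 fell in p66Low selection, 0 passed in p66High selection and 0 for the interaction, and 1 passed between parental tumours, Grhl1. There, Tfap2b was the 1 gene that passed in p66High against p66Low aggressive tumours (log2 1.46, adjusted p = 0.0125) and Tfap2c did not (log2 0.84, adjusted p = 0.0874).

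Among 17 luminal surface and progenitor genes, Cldn4 was the 1 gene that passed with selection in both lines, in opposite directions. In p66Low tumours 3 of 17 rose and 0 fell (9.6% and 7.03% of all genes): Cldn4, a tight junction gene (log2 2.15), Ly6a, the Sca-1 gene (log2 2.86), and Cd24a (log2 0.49). T cell, B cell and macrophage markers were also higher in p66Low aggressive tumours, as given above, and the part of those cells in these rises was not tested. In p66High tumours 0 rose and 4 fell (3.11% and 2.82% of all genes). Cldn3, a tight junction gene, was at 17.7 ± 10.5 CPM in p66High aggressive, against 152 ± 10.4 CPM in p66High parental tumours (SD, n = 3 each; log2 -3.12, adjusted p = 0.0019), and Muc1 (log2 -1.41), Cd14 (log2 -1.02) and Cldn4 (log2 -1.06) fell with it. For the interaction 7 of 17 passed, all below 0 (7.99% of all genes), with a median of -0.87, against 0.05 over all genes, and Cldn4 was at -3.22 (adjusted p = 0.00185). Between aggressive tumours of the lines, 1 was higher and 7 lower in p66High (8.92% and 12.1% of all genes), with Cldn3 at -2.38, Ly6a at -2.92, Cldn7 at -0.49 and Muc1 at -1.47. In parental tumours Cldn4 (log2 2.10), Prom1 (log2 2.83) and Cd14 (log2 1.08) were higher in p66High tumours. Without the 3 lymph node-rich libraries 3 of 17 rose in p66Low selection and 2 fell in p66High selection, Cldn3 and Cd14. Between aggressive tumours 0 were then higher and 5 lower in p66High, and 2 passed for the interaction, both below 0. Between parental tumours the same 3 genes passed.

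Basal genes, 15 in all, gave 2, 3, 2, 4 and 5 calls between parental tumours, in p66Low selection, in p66High selection, between aggressive tumours and for the interaction, where 8.08%, 16.6%, 5.94%, 21% and 12.4% of all genes passed. The list's medians ran from -1.04 to 0.61. Sox10, a factor of neural crest and mammary progenitor cells, was at 176 ± 18.2 CPM in p66High aggressive, against 69.4 ± 14.2 CPM in p66High parental tumours (SD, n = 3 each; log2 1.34, adjusted p = 0.00118), while Oxtr, the oxytocin receptor gene of myoepithelium, fell by 2.13. In p66Low selection Lgr5 fell by 1.68 and Foxc1 by 0.41, and Procr rose by 1.24. Foxc1 (log2 0.83), Lgr5 (log2 2.16) and Sox10 (log2 0.70) were higher and Procr lower (log2 -1.20) in p66High than in p66Low aggressive tumours. In parental tumours Sox10 was lower (log2 -0.99) and Foxc1 higher (log2 0.61) in p66High tumours. For the interaction 2 of 15 passed above 0, Sox10 (log2 1.70) and Lgr5 (log2 1.97), and 3 below. Leaving out the 3 lymph node-rich libraries, 0 of 15 passed in p66Low selection, 1 between aggressive tumours, Foxc1 (log2 0.68), and 1 for the interaction, Sox10 (log2 1.55). Sox10 and Oxtr passed in p66High selection there, and Sox10 and Foxc1 between parental tumours.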

How the data were processed

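The authors deposited whole-number read counts per gene, not normalized, for 12 bulk tumours in 4 groups of 3. Per the labels' protocols, libraries came from an rRNA-depleted stranded kit. Per the submitters' processing notes, Trimmomatic 0.32, STAR 2.3.0e, featureCounts 1.4.4 and mm10 were used. The annotation, strand setting and handling of multiply mapping reads were not given in the sources used here. Nothing in the labels ties each tumour to its own mouse, so the p-values reflect only the spread between these samples, which may be technical. Titles that share a number with L and R may mark tumours of 1 mouse, and the p66High groups, given as n = 3, could then hold fewer mice than tumours.

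From these, edgeR 4.0.16 (R 4.3.3) applied filterByExpr (19370 genes left), TMM scaling and a quasi-likelihood F-test to all 12 tumours, with 8 residual degrees of freedom. Benjamini-Hochberg adjustment ran over all tested genes, with a threshold of 0.05. CPM are counts over TMM-scaled libraries. An SE was obtained as the size of the log2 change divided by the root of F. The interaction is the log2 effect of selection in p66High minus that in p66Low tumours. The fit was also run on counts simulated for independent tumours with its own estimates of spread. That run cannot bear on shared mice or on lymph node-rich libraries, because it simulated neither. Floors cover counting error only. Coordinates and exon lengths are from GENCODE (mm10) and promoters from RefSeq (GRCm38.p6).

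The text names the 10 genes, the nearest tested protein-coding gene on each side of them, Shc1, and for each list in each comparison up to 4 called genes with the smallest p. Outside this rule, Krt8, Krt18, Epcam, Krt19, 9230102O04Rik, Gm13256, Gm21973 and Stat3 were named after their values were seen. The 10 genes and all lists were chosen with earlier results of these data known. Alternatives were RLE scaling, library size alone, no filter, DESeq2 1.42.0, only the 6 tumours compared, summing tumours whose titles share a number (p66High parental replicates 1 and 2, p66High aggressive replicates 1 and 2, each marked L and R), leaving out each tumour in turn, leaving out libraries above 20 summed CPM of lymph node stroma genes, and, chosen after seeing the data, summing Stat5a and Stat5b.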

Additional observations from a re-analysis of the deposited data

Results flagged for a closer look

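The effect of selection on Prlr differed between the lines by the test of the interaction, with 0.82 on the log2 scale (SE 0.19, edgeR adjusted p = 0.0195). The log2 difference of Prlr between aggressive and parental tumours was 0.20 in p66High tumours, which did not pass, and -0.63 in p66Low tumours. The effect of selection on Spdef also differed, with an interaction of -1.85 (SE 0.43, adjusted p = 0.0193). Its log2 effect was -0.87 in p66High tumours, which did not pass, and 0.98 in p66Low tumours.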

How the results depend on the processing

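No paired analysis was possible because the labels give the groups no shared replicate numbers. Values are in the order p66High against p66Low parental, aggressive against parental in p66Low, the same in p66High, p66High against p66Low aggressive, and the interaction, where the reported fit called 1565, 3221, 1150, 4077 and 2395 of all genes. Leaving out each tumour gave 871 to 1927, 1545 to 3505, 457 to 1469, 2438 to 4502 and 1179 to 3278 genes, and 0, 1 to 5, 0, 2 and 1 to 2 of the 10. Without the 3 lymph node-rich libraries the genes were 838, 705, 586, 1075 and 335, and of the 10, 0 passed in p66Low selection, 1 in aggressive tumours and 0 for the interaction. With title numbers summed, genes were 908, 305 and 1179 in the first, the third and the last comparison, with 2 of the 10 in p66Low selection and 0 for the interaction. DESeq2 called 2549 genes in parental tumours and 2261 in p66High selection, with 1 of the 10. Fitting only the 6 tumours compared gave 2128 genes and 1 of the 10 in p66Low selection. Library size alone gave 3 of the 10 there and 1 for the interaction, and no filter gave 3. Library size alone moved the median of all genes by 0.11 in p66Low selection, where 73.6% of calls were higher against 57.7% with TMM. It gave 32.7% against 42.4% in aggressive tumours and 23.3% against 35.4% for the interaction. The 5 genes called in p66Low selection had the same sign under library size alone.

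Signs that turned were all of values that did not pass. Without the lymph node-rich libraries, in p66Low selection Pgr was at -0.65, Elf5 at 0.10 and Ehf at 0.31, Foxa1 at 0.18 in p66High selection, and in aggressive tumours Pgr at 0.64, Gata3 at -0.05, Foxa1 at 0.09, Stat5a at 0.17 and Ehf at -0.25, with Elf5 at -0.19 for the interaction. With library size alone Ehf was at 0.08 in p66Low selection, Esr1 at -0.04 in aggressive tumours and Elf5 at -0.04 for the interaction. With title numbers summed Ehf was at -0.02 in aggressive tumours and Elf5 at -0.01 for the interaction. Stat5a summed with Stat5b was at 0.10 in p66High selection and 0.10 in aggressive tumours. Leaving out single tumours, Ehf ranged from -0.22 to 0.16 in p66Low selection and -0.04 to 0.28 in aggressive tumours, Foxa1 from -0.42 to 0.21 in p66High selection, Esr1 from -0.09 to 0.15 and Stat5a from -0.08 to 0.06 in aggressive tumours, and Elf5 from -0.03 to 0.22 for the interaction. The cause of these changes was not tested. Depth limits Foxa1 and Pgr, at 54 counts or fewer and 103 or fewer per tumour.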
